A study of Mus musculus with 55 samples.

Results

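The metabotropic glutamate receptor genes Grm2, Grm3, Grm4, Grm5, Grm7 and Grm8 were followed in the ventral dentate gyrus of male mice after chronic social defeat stress (CSDS). The 6 genes were chosen by name out of 45318 genes listed in the count tables, because Grm2 has been proposed as a marker of stress susceptibility and the others belong to the same receptor family. The choice was made with earlier results of these data known. All 6 passed the low-count filter and were among the 18283 genes tested. Adult male C57BL/6J mice had been raised in standard housing (SH) or in an enriched environment (EE), and were then either left unstressed or exposed to repeated defeat by CD-1 aggressors. Defeated mice were classified as resilient (RES) or susceptible (SUS) from a single behavioral measure, the social interaction ratio. There were 27 SH mice (10 unstressed controls, 7 RES, 10 SUS) and 27 EE mice (9 in each of the same categories), with 1 mouse per library. No females were included, and no genotype other than C57BL/6J is named for these mice. RNA came from tissue punches, so a change in the number of cells of a type and a change in RNA per cell cannot be told apart. Total counts assigned to genes ranged from 16760009 to 45872357 per mouse, and the highest total is that of EE control replicate 9, whose 2 sequencing runs were summed. The 6 granule cell markers Prox1, C1ql2, Dsp, Calb1, Tdo2 and Trpc6 were all detected in every mouse. Calb1 was the most abundant, at a mean CPM (read pairs per 1e+06 assigned to genes, with TMM-scaled library sizes) of 261.9. The listed markers of CA1 and CA3 pyramidal cells and of thalamus were also detected in every mouse, so detection alone does not separate these tissues.

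Metabotropic glutamate receptors are G protein-coupled receptors that tune synaptic transmission rather than carry the fast synaptic current. Group I receptors, here Grm5, couple to Gq and phospholipase C and lie mostly on postsynaptic membranes, whereas group II (Grm2 and Grm3) and group III (Grm4, Grm6, Grm7 and Grm8) couple to Gi/o, inhibit adenylyl cyclase and, at many terminals, restrain transmitter release. In the hippocampus Grm2 is known for its expression in dentate granule cells and their mossy fiber axons, Grm3 for its expression in astrocytes as well as neurons, and Grm6 for its restriction to the retina.

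Grm2 and Grm8 were the only receptor pair whose mRNA levels were related across mice within groups at an adjusted p of 0.05 by Pearson's r, as described further on, and the sequences just before their start sites are shown for that reason. The bases are those of RefSeq on GRCm38.p6, read 5′ to 3′ on the gene's strand, which is the minus strand for both. Capitals mark GGGCGG, the core of the GC box recognized by Sp-family factors, searched on both strands.
Grm2, chr9:106656110-106656359: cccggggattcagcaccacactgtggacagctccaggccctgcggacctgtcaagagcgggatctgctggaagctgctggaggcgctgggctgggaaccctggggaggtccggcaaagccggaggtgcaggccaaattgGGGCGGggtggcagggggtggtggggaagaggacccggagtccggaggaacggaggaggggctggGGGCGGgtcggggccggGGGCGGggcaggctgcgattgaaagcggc
Grm8, chr6:28135179-28135396: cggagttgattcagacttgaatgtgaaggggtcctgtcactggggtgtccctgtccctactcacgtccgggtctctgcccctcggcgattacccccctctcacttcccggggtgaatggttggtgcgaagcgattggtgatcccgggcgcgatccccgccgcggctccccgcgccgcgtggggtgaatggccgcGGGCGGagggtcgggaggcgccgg
The Grm2 stretch of 250 bases held GGGCGG 3 times and had a GC content of 71.2%, higher than in 92.2% of the 32851 promoter windows of the RefSeq table. The Grm8 stretch, shortened to 218 bases because the annotated gene covers the remainder, held it 1 time. GGGCGG occurred in 32.7% of all 250-base windows, so its presence is not particular to these receptors. Neither stretch held the E-box pattern CANNTG, which occurred in 66.2% of windows, or TATAAA, which occurred in 12.4%. The matches describe letters in a window, and no binding was measured.

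To compare the receptors with each other, CPM was divided by the summed length of each gene's annotated exons. Grm5 was the most abundant receptor, with a level of 53.7 ± 2.34 CPM per kb (SD, n = 54 mice), which made up 48.3% of the 6 receptors' summed level per length. Grm3 followed at 26.9 ± 2.50 CPM per kb and Grm7 at 21.7 ± 0.939 CPM per kb. Grm2 came to 6.779 ± 1.299 CPM per kb, or 6.08% of the sum. The lowest were Grm8 at 1.09 ± 0.184 CPM per kb and Grm4 at 1.07 ± 0.505 CPM per kb, whose order was not stable, with Grm8 above Grm4 in 36 of 54 mice. Grm5 exceeded Grm3, and Grm2 exceeded Grm8, in all 54 mice. Grm6 was represented by 3 counts in all 54 mice together. When the longest annotated transcript was used in place of all exons, Grm7 (30.4 CPM per kb) stood above Grm3 (26.9 CPM per kb), so the order of these neighbors depends on which transcripts are made.

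**Figure D1:**
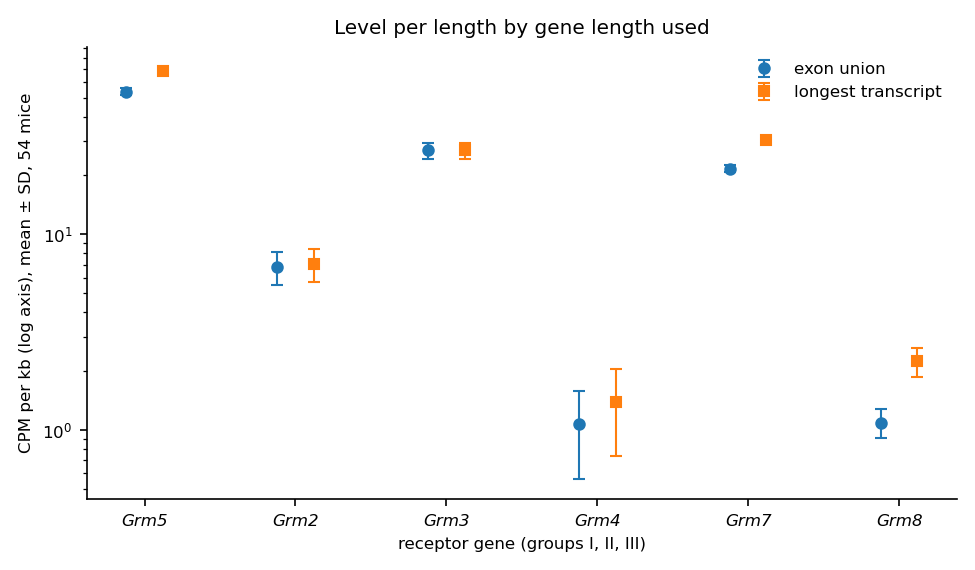
Level per length of the 6 receptor genes in CPM per kb on a log axis, as mean ± SD over 54 mice, with circles for the union of annotated exons and squares for the longest annotated transcript. Grm5 lies highest under both lengths, Grm2 lies between the abundant and the scarce receptors, and Grm4 and Grm8 lie lowest.

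Across the 13 contrasts between groups and an overall test of the 6 groups, none of the 6 receptors passed an adjusted p of 0.05 (quasi-likelihood test of edgeR, Benjamini-Hochberg adjustment over all genes tested), and none did so with limma-voom or DESeq2. Without adjustment, 12 of the 78 receptor contrasts (15.4%) had p below 0.05 with edgeR, 11 (14.1%) with limma-voom and 13 (16.7%) with DESeq2. Over all genes tested and the same 13 contrasts, these shares were 6.91%, 6.74% and 6.75%. The contrasts share groups of mice and the receptors share the mice, so the 78 values are not independent of each other and nothing particular to the receptors is read from their number. The receptors are described below in the order of their coupling groups, each with its values first.

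Grm5 (ENSMUSG00000049583, chr7:87584168-88134907, plus strand) encodes a group I receptor with wide forebrain expression and had the smallest SD within groups of the 6 genes on the log2 scale. Its level in SH ran from 521 to 611 CPM in control mice (median 555), from 537 to 591 CPM in RES mice (median 563) and from 513 to 587 CPM in SUS mice (median 552). In EE it ran from 523 to 585 CPM in control mice (median 562), from 504 to 598 CPM in RES mice (median 536) and from 507 to 565 CPM in SUS mice (median 534). All 6 groups overlapped, although 8 of 9 EE SUS mice lay below the median of EE control mice. The difference between EE SUS and EE control mice was -0.06 on the log2 scale (SE 0.03; edgeR p = 0.0403, adjusted p = 0.615), and that between EE and SH over all phenotypes was -0.04 (SE 0.02; edgeR p = 0.0413, adjusted p = 0.259). With scores of thalamus and choroid plexus markers as covariates, described with Grm4, these were -0.03 (SE 0.03; edgeR p = 0.388) and -0.03 (SE 0.02; edgeR p = 0.0778). The score of oligodendrocyte markers, the list with which Grm5 varied most closely, was 0.06 in EE control and 0.70 in EE SUS mice, and its part in the Grm5 difference was not tested. Between SUS and RES mice, Grm5 differed by -0.03 in SH (95% CI -0.10 to 0.03) and by -0.02 in EE (95% CI -0.08 to 0.04), so neither interval reached beyond 0.10 in size. Its SD within groups was 0.0592 log2 units, against 0.0624 for Grm7, and was smaller than that of all but 2.06% of the genes tested. Over all 54 mice together the coefficients of variation of the CPM were nearly equal, at 4.35% for Grm5 and 4.32% for Grm7.

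Grm2 (ENSMUSG00000023192, chr9:106643095-106656082, minus strand) encodes a presynaptic group II receptor. In SH the level ran from 29.2 to 44.3 CPM in control mice (median 35.9), from 34.5 to 40.9 CPM in RES mice (median 36.9) and from 22.2 to 40.4 CPM in SUS mice (median 31.9). In EE it ran from 21.3 to 43.9 CPM in control mice (median 33.7), from 20 to 38.5 CPM in RES mice (median 28.9) and from 22.8 to 41.3 CPM in SUS mice (median 28.1). The SH RES mice stood out for how close together they were, with an SD of 2.48 CPM (n = 7), against SDs of 4.75 to 7.19 CPM in the other groups. This was not particular to Grm2. The coefficient of variation of the CPM was also lowest in SH RES mice for Grm5 (3.18%), Grm7 (2.18%) and Grm8 (9.95%), but not for Grm3 or Grm4. A score of granule cell markers had an SD of 0.249 in SH RES mice, against 0.657 to 1.152 in the other groups. Of the 10 SH SUS mice, 6 lay below the lowest SH RES mouse and 4 lay within the range of the RES mice, so the groups overlapped.

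The comparison that asks whether Grm2 marks susceptibility is that of SUS with RES mice. In SH, Grm2 averaged 32.98 ± 6.87 CPM in SUS mice (SD, n = 10) and 37.6 ± 2.48 CPM in RES mice (SD, n = 7). The log2 fold change was -0.19 (SE 0.13, 95% CI -0.45 to 0.07; edgeR p = 0.143, adjusted p = 0.934). In this comparison 0.0% of all genes tested were called. A two-sided exact permutation test of the same mice gave p = 0.0925, 1 of 12 such tests over the 6 receptors and both housings. In EE the averages were 30.7 ± 6.69 CPM in SUS mice and 29.5 ± 6.53 CPM in RES mice (SD, n = 9 each), with a log2 fold change of 0.06 (SE 0.12, 95% CI -0.19 to 0.31; edgeR p = 0.635, adjusted p = 1.0; exact permutation p = 0.684), again with 0.0% of genes called. The estimates had opposite signs in SH and EE, but the test of that difference did not separate them (0.25 on the log2 scale, SE 0.18; edgeR p = 0.168, adjusted p = 0.977, with 0.0% of genes called and 4.84% below an unadjusted p of 0.05). The EE estimate was -0.0026 without EE SUS replicate 8, and with a score of granule cell markers as covariate the estimates were -0.07 in SH and -0.04 in EE (edgeR p = 0.321 and 0.563), so the opposite signs rest on that mouse and on the fit without the covariate. Over both housings, SUS and RES mice differed by -0.07 (95% CI -0.25 to 0.11; edgeR p = 0.468, adjusted p = 0.999).

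Grm2 was compared with unstressed mice in the same way. SUS mice differed from control mice by -0.10 in SH (SE 0.12; edgeR p = 0.376, adjusted p = 1.0, with 0.0328% of genes called and 2.78% below an unadjusted p of 0.05) and by -0.12 in EE (SE 0.12; edgeR p = 0.342, adjusted p = 0.847, with 0.0% called). RES mice differed from control mice by 0.09 in SH (SE 0.13; edgeR p = 0.506) and by -0.18 in EE (SE 0.12; edgeR p = 0.155), each with 0.0% of genes called. Over both housings, defeated mice differed from control mice by -0.08 (SE 0.07; edgeR p = 0.295, adjusted p = 0.987), where 0.0438% of genes were called and 4.81% had an unadjusted p below 0.05. None of these differences exceeded the spread between mice. Leaving out 1 mouse moved the SUS minus control difference between -0.14 and -0.05 in SH and between -0.18 and -0.06 in EE. The RES minus control difference moved between 0.06 and 0.13 in SH and between -0.24 and -0.12 in EE. That of defeated and control mice moved between -0.11 and -0.05.

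Housing gave the lowest p-values for Grm2, in tests that treat mice of the same cage as independent. Resilient mice raised in EE had 29.5 CPM against 37.6 CPM in SH, and 7 of the 9 EE RES mice lay below the lowest SH RES mouse while the other two lay within the SH range. The log2 fold change was -0.35 (SE 0.13, 95% CI -0.61 to -0.09; edgeR p = 0.0103, adjusted p = 0.165), in a comparison where 0.273% of genes were called. It met the study's own criterion, an unadjusted p below 0.05 with a fold change above 1.3 in limma-voom, which 3.24% of all genes also met, but not with the edgeR or DESeq2 values, whose fold change stayed under 1.3. Over all phenotypes the EE minus SH difference was -0.18 (SE 0.07; edgeR p = 0.0163, adjusted p = 0.168), and 2.42% of genes were called there. Without adjustment, 16.0% of all genes had an edgeR p below 0.05 in resilient mice and 17.6% over all phenotypes, so a low unadjusted p was common there. In control mice the housing difference was -0.09 (SE 0.12; edgeR p = 0.481) and in SUS mice -0.10 (SE 0.12; edgeR p = 0.415), each with 0.00547% of genes called. Leaving out 1 mouse moved it between -0.14 and -0.02 in control mice and between -0.16 and -0.06 in SUS mice.

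**Figure D2:**
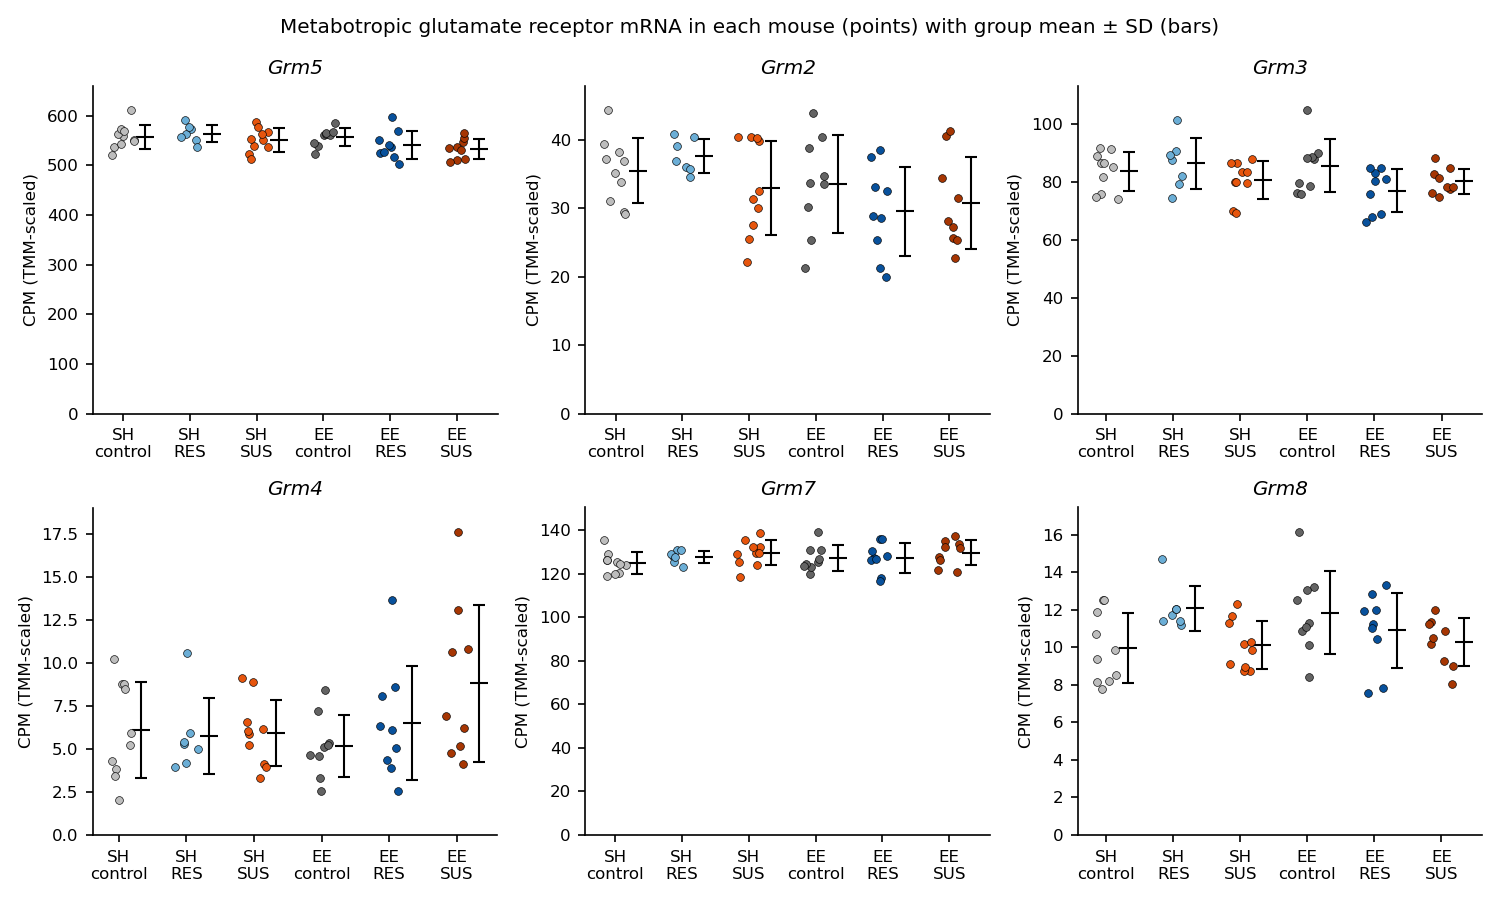
CPM (TMM-scaled) of each receptor by mouse in the 6 groups, 1 panel per gene with its own axis from 0, points for mice and bars for group mean ± SD. Grm5 and Grm7 stay within narrow bands, the 7 SH RES mice lie between 34.5 and 40.9 CPM for Grm2, and 1 EE SUS mouse reaches 17.6 CPM for Grm4.

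Grm3 (ENSMUSG00000003974, chr5:9485541-9725170, minus strand), the group II receptor also made by astrocytes, had its highest mean in SH RES mice and its lowest in EE RES mice. SH RES mice ranged from 74.3 to 101.3 CPM (median 87.6) and EE RES mice from 66.0 to 84.8 CPM (median 80.1). The groups overlapped, but all 9 EE RES mice lay below the SH RES median, and the difference was -0.17 (SE 0.06; edgeR p = 0.00976, adjusted p = 0.162). Control mice ranged from 73.8 to 91.6 CPM in SH (median 85.7) and from 75.9 to 104.6 CPM in EE (median 87.8). EE RES mice were lower than EE control mice, with a log2 fold change of -0.15 (SE 0.06; edgeR p = 0.0121, adjusted p = 0.571), where 7.91% of all genes reached an unadjusted p of 0.05. Without EE control replicate 7, the highest of its group, that estimate was -0.11 (edgeR p = 0.0585), and without SH RES replicate 1 the housing difference in RES mice was -0.13 (edgeR p = 0.0503). SUS mice ranged from 69.0 to 87.7 CPM in SH (median 81.5) and from 74.7 to 88.0 CPM in EE (median 78.2). SUS and RES mice differed by -0.10 in SH (95% CI -0.22 to 0.02; edgeR p = 0.108, adjusted p = 0.934) and by 0.06 in EE (95% CI -0.06 to 0.18; edgeR p = 0.312, adjusted p = 1.0). Leaving out 1 mouse moved the SH value between -0.14 and -0.06, with a lowest edgeR p of 0.0339. The SUS and RES contrast differed between EE and SH by 0.16 (SE 0.08; edgeR p = 0.065, adjusted p = 0.977). With thalamus and choroid plexus scores as covariates the EE value was 0.11 (SE 0.05; edgeR p = 0.0442, adjusted p = 1.0). The difference between EE and SH was then 0.18 (SE 0.08; edgeR p = 0.022, adjusted p = 0.955).

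The lists with which Grm3 varied most closely, microglia and astrocytes, had lower mean scores in EE RES than in EE control mice. The microglial score went from 0.33 in EE control to -0.10 in EE RES mice, and the 6 markers summed to 279 to 331 CPM in EE control mice (median 289) and 259.5 to 315 CPM in EE RES mice (median 283), with Csf1r the most abundant. The astrocyte score went from 0.34 to -0.15, and the 5 markers summed to 676 to 995 CPM in EE control mice (median 808) and 695 to 867 CPM in EE RES mice (median 807), with Gfap the most abundant. These ranges overlapped, no marker was at 0 over the 54 mice, and 0 of 6 microglial and 1 of 5 astrocyte markers had an unadjusted p below 0.05 with edgeR, where 7.91% of all genes did. Scores were higher in EE RES mice for CA3 pyramidal cells (-0.41 to 0.32, with 2 of 5 markers at an unadjusted p below 0.05), thalamus (-0.54 to 0.03, 3 of 6) and blood (-0.79 to 0.19, 5 of 5), and lower for granule cells (0.10 to -0.63, 2 of 6) and mossy cells (0.19 to -0.27, 0 of 3). Between SH RES and EE RES mice the astrocyte score was -0.13 and -0.15, and the microglial score -0.15 and -0.10. The part of microglial, astrocyte, CA3, mossy cell and blood markers in the Grm3 differences was not tested. The EE RES minus EE control difference was -0.13 with thalamus and choroid plexus covariates (SE 0.05; edgeR p = 0.0165) and -0.14 with the granule cell score as covariate (SE 0.06; edgeR p = 0.0239).

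Grm4 (ENSMUSG00000063239, chr17:27422387-27521403, minus strand), a presynaptic group III receptor, was the scarcest of the 6 receptors by count and the most variable. It had 48 to 385 counts per mouse, and its SD within groups of 0.614 log2 units exceeded that of 98.6% of genes. In SH the level ran from 2.05 to 10.2 CPM in control mice (median 5.55), from 3.96 to 10.6 CPM in RES mice (median 5.26) and from 3.34 to 9.10 CPM in SUS mice (median 5.97). In EE it ran from 2.57 to 8.40 CPM in control mice (median 5.11), from 2.55 to 13.7 CPM in RES mice (median 6.10) and from 4.12 to 17.6 CPM in SUS mice (median 6.92). In 4 of the 9 EE SUS mice Grm4 was above every EE control mouse. SUS and RES mice differed by 0.06 in SH (SE 0.29, 95% CI -0.53 to 0.64; edgeR p = 0.844, adjusted p = 0.986; exact permutation p = 0.848) and by 0.43 in EE (SE 0.27, 95% CI -0.11 to 0.97; edgeR p = 0.114, adjusted p = 1.0; exact permutation p = 0.224). The EE value ran from 0.23 without EE SUS replicate 8 to 0.64 without EE RES replicate 6. Over the fits that left out 1 mouse, its lowest edgeR p was 0.0198. EE SUS mice exceeded EE control mice by 0.79 (SE 0.27, 95% CI 0.24 to 1.34; edgeR p = 0.00572, adjusted p = 0.427), a contrast in which 7.9% of genes had an unadjusted p below 0.05, and Grm4 also met the study's criterion there, as 1.94% of genes did. EE SUS exceeded SH SUS mice by 0.56 (SE 0.26; edgeR p = 0.037, adjusted p = 0.661, against 7.36% of genes below 0.05), without meeting the study's criterion in limma-voom, which 1.56% of genes met, although the edgeR and DESeq2 values passed the same limits, and by 0.36 without EE SUS replicate 8 (edgeR p = 0.171), the mouse with the highest Grm4. Without that mouse the EE SUS minus EE control difference was 0.59.

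Markers of the neighboring thalamus were higher where Grm4 was higher. All 6 thalamic markers on the list (Tcf7l2, Lef1, Prkcd, Synpo2, Ntng1 and Ramp3) were higher in EE SUS than in EE control mice at an unadjusted p below 0.05 with edgeR, beside 7.9% of all genes in either direction. None of the 6 passed adjustment, and the median log2 fold change of the 6 markers was 1.21 against -0.00516 over all genes. Their summed level was 73.6 to 135 CPM in EE control mice (median 76.2) and 85.5 to 318 CPM in EE SUS mice (median 172), with Ntng1 the most abundant and no marker at 0 over the 54 mice. With thalamus and choroid plexus scores as covariates in the edgeR fit, the Grm4 difference between EE SUS and EE control mice was -0.15 (SE 0.12; p = 0.22, adjusted p = 0.884) in place of 0.79. That between EE and SH SUS mice became -0.02 (SE 0.11; edgeR p = 0.882), and the SUS minus RES difference -0.03 in SH and -0.04 in EE (edgeR p = 0.781 and 0.692). With the granule cell score as covariate instead, Grm4 differed by 0.79 between EE SUS and EE control mice (SE 0.28; edgeR p = 0.00662, adjusted p = 0.473). Between EE and SH SUS mice it differed by 0.56 in that fit (SE 0.26; edgeR p = 0.0391, adjusted p = 0.653).

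The scores of other lists were set beside this, without a test of any list. From EE control to EE SUS mice the mean score went from -0.79 to 0.37 for blood (5 of 5 markers at an unadjusted p below 0.05 with edgeR), from -0.41 to 0.31 for CA3 pyramidal cells (1 of 5), from 0.06 to 0.70 for oligodendrocytes (0 of 6), from 0.03 to 0.63 for endothelial cells (0 of 5) and from 0.38 to -0.33 for oligodendrocyte precursors (2 of 3, both lower), beside 7.9% of all genes. The summed level of the blood markers ran from 60.1 to 107 CPM in EE control mice (median 82.7) and from 52.4 to 441 CPM in EE SUS mice (median 183), and that of the oligodendrocyte markers from 989 to 2041 CPM (median 1331) and from 1227 to 2151 CPM (median 1733). The ranges of both lists overlapped between these groups, and apart from thalamus the scores of the remaining 8 lists moved by less than those of these 5. The part of these 5 lists in the differences of Grm4 and of Grm5 between EE SUS and EE control mice was not tested.

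Grm7 (ENSMUSG00000056755, chr6:110645581-111567230, plus strand), a group III receptor of presynaptic active zones, showed the least difference between groups. Its level ran from 119 to 136 CPM in SH control mice (median 125), from 123 to 131 CPM in SH RES mice (median 128) and from 119 to 139 CPM in SH SUS mice (median 130). In EE it ran from 120.0 to 139 CPM in control mice (median 126), from 117 to 136 CPM in RES mice (median 127) and from 121 to 138 CPM in SUS mice (median 132). No contrast of Grm7 reached an unadjusted p of 0.05 with edgeR. SUS and RES mice differed by 0.02 in SH (95% CI -0.05 to 0.08) and by 0.03 in EE (95% CI -0.03 to 0.09), so the intervals reach no further than 0.09 on the log2 scale. Only 2.95% of genes had a smaller SD within groups.

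Grm8 (ENSMUSG00000024211, chr6:27275119-28135178, minus strand), another presynaptic group III receptor, was highest on average in SH RES mice. It ran from 11.2 to 14.7 CPM in SH RES mice (median 11.7), from 8.73 to 12.3 CPM in SH SUS mice (median 10.01) and from 7.77 to 12.5 CPM in SH control mice (median 9.62). Of the 10 SH SUS mice, 7 lay below the lowest SH RES mouse, and all 7 SH RES mice lay above the median of the SH controls. SUS mice were lower than RES mice with a log2 fold change of -0.26 (SE 0.11, 95% CI -0.47 to -0.04; edgeR p = 0.0218, adjusted p = 0.934), where 4.88% of genes had an unadjusted p below 0.05. The exact permutation test gave p = 0.00607, the smallest of the 12 such tests. RES mice exceeded control mice in SH by 0.28 (SE 0.11; edgeR p = 0.0126, adjusted p = 1.0, against 3.51% of genes). Without SH RES replicate 5, the highest of its group, the SUS minus RES difference was -0.21 (edgeR p = 0.075) and the RES minus control difference 0.23 (edgeR p = 0.0465).

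In EE, Grm8 ran from 8.43 to 16.1 CPM in control mice (median 11.3), from 7.56 to 13.3 CPM in RES mice (median 11.2) and from 8.03 to 11.96 CPM in SUS mice (median 10.5). These ranges overlapped broadly, and SUS and RES mice differed by -0.09 (95% CI -0.30 to 0.12; edgeR p = 0.419, adjusted p = 1.0; exact permutation p = 0.529). Over both housings the SUS minus RES difference was -0.17 (SE 0.08; edgeR p = 0.0277, adjusted p = 0.999, against 3.67% of genes). The difference of the SUS and RES contrast between EE and SH was 0.17 (SE 0.15; edgeR p = 0.263, adjusted p = 0.977), so a response limited to SH was not shown. EE control mice exceeded SH control mice by 0.24 (SE 0.10; edgeR p = 0.0194, adjusted p = 0.899, against 5.02% of genes), with 4 of 9 EE control mice above every SH control mouse. Without EE control replicate 3 this was 0.18 (edgeR p = 0.0831). In the overall test of the 6 groups Grm8 had p = 0.0423 (adjusted p = 0.425, edgeR), where 11.1% of genes had an unadjusted p below 0.05 and 0.35% were called.

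Markers of hilar mossy cells, the list with which Grm8 varied most closely, were also highest on average in SH RES mice. All 3 markers on the list (Calb2, Drd2 and Csf2rb2) were tested, none was at 0 over the 54 mice, and Calb2 was the most abundant at a mean of 131.1 CPM. Their summed level ran from 135 to 193 CPM in SH RES mice (median 143), from 100.5 to 144 CPM in SH SUS mice (median 124), from 53.7 to 170.2 CPM in SH control mice (median 137.5) and from 81.7 to 205 CPM in EE control mice (median 153). The ranges overlapped, although the SH RES minimum lay above the SH SUS median. In SUS against RES mice in SH, Calb2 (-0.34, edgeR p = 0.044) and Drd2 (-0.44, edgeR p = 0.00791) were lower at an unadjusted p below 0.05, each with an adjusted p of 0.934. Of all genes, 4.88% had an unadjusted p below 0.05 there, in either direction. None of the 3 markers reached an unadjusted p of 0.05 for RES against control mice in SH or for EE against SH in control mice, where 3.51% and 5.02% of all genes did. The part of these markers in the Grm8 differences was not tested.

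**Figure D3:**
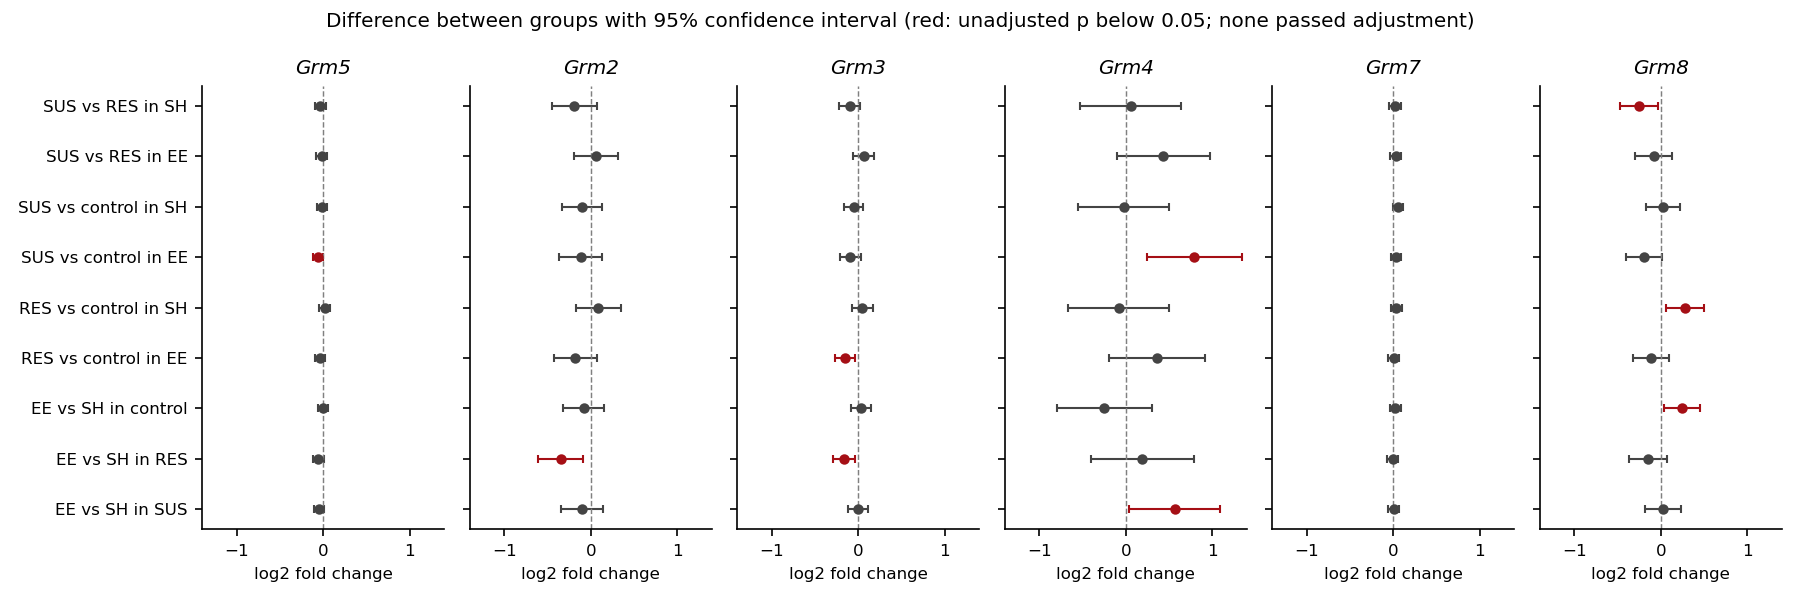
Log2 fold change of each receptor with its 95% confidence interval (edgeR, 54 mice in 1 fit) in 9 comparisons, with red for an unadjusted p below 0.05. Intervals are narrow for Grm5 and Grm7 and widest for Grm4, where EE SUS against EE control mice reaches 0.79, and no receptor passed adjustment.

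The receptors were set against 14 lists of marker genes to see with which cell types their mRNA varied. For each list a score per mouse was the mean z-score of its genes, and relations were computed on deviations from the group means over 54 mice, with 100000 permutations within groups and adjustment over 84 relations. Of these, 25 passed an adjusted p of 0.05 by Pearson's r, and 22 passed by Spearman's rho as well.

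Grm2 varied most closely with the granule cell markers (r = 0.835, adjusted permutation p = 0.000105; rho = 0.769, adjusted permutation p = 0.00014; r = 0.795 without the 2 mice farthest from the median score). The raw p of 1e-05 is the smallest these permutations can give. Within single groups r ran from 0.182 to 0.906 and was positive in all 6. The granule cell score accounted for 69.7% of the variance of Grm2 within groups. Grm2 varied inversely with the scores of oligodendrocytes (r = -0.696, rho = -0.662) and of CA3 pyramidal cells (r = -0.692, rho = -0.610), each with the smallest possible raw permutation p of 1e-05. The inverse relation with oligodendrocyte markers was negative in all 6 groups, whereas that with CA3 markers ran from -0.923 to 0.426 between groups.

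Granule cell markers were lower in the group in which Grm2 was lower. Of the 6, 5 were lower in EE RES than in SH RES mice at an unadjusted p below 0.05 with edgeR (Trpc6 was the exception, at -0.16), beside 16.0% of all genes in either direction, and the median log2 fold change was -0.32 against 0.00494 over all genes. Their summed level ran from 791 to 912 CPM in SH RES mice (median 813) and from 498 to 803 CPM in EE RES mice (median 709). Over all phenotypes, Dsp (-0.30, adjusted p = 0.0281) and Tdo2 (-0.28, adjusted p = 0.0214) passed the edgeR test of EE against SH. With the granule cell score as a covariate, the Grm2 difference between EE and SH RES mice was -0.04 (SE 0.08; edgeR p = 0.613) in place of -0.35, and that over all phenotypes was -0.03 (SE 0.04; edgeR p = 0.545) in place of -0.18. The SUS minus RES difference of Grm2 in SH was -0.07 (SE 0.07; edgeR p = 0.321) in that fit. Grm8 was at -0.20 in the same fit for SUS against RES in SH (SE 0.10; edgeR p = 0.0513) and 0.27 for EE against SH in control mice (SE 0.09; edgeR p = 0.00512, adjusted p = 0.549). With thalamus and choroid plexus scores as covariates instead, the Grm2 difference between EE and SH RES mice was -0.31 (SE 0.11; edgeR p = 0.00906, adjusted p = 0.165). The Grm2 difference over all phenotypes was -0.16 in that second fit (SE 0.06; edgeR p = 0.0136, adjusted p = 0.151).

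Markers of other lists were compared between EE RES and SH RES mice as well, without a test of any list. Oligodendrocyte markers had a summed level of 987 to 1270 CPM in SH RES mice (median 1201) and of 1182 to 1910 CPM in EE RES mice (median 1449), and Cnp, Mag, Mbp and Mobp were higher in EE RES mice at an unadjusted p below 0.05 with edgeR, beside 16.0% of all genes in either direction, with Mbp the most abundant and no marker of the list at 0 over the 54 mice. Of the 5 CA3 markers, Bok and Grik4 were higher, and the summed level ran from 123 to 155 CPM in SH RES mice (median 143) and from 139.6 to 215 CPM in EE RES mice (median 159.9). Of the 3 mossy cell markers Drd2 was lower, and the summed level ran from 74.05 to 162 CPM in EE RES mice (median 134), against the SH RES values given above. The mean score went from -0.77 to 0.25 for oligodendrocytes, from -0.26 to 0.32 for CA3 pyramidal cells and from 0.59 to -0.27 for mossy cells, in z units, from SH RES to EE RES mice. It went from -0.35 to 0.26 for endothelial cells, from -0.36 to 0.16 for GABA interneurons and from -0.03 to 0.44 for CA1 pyramidal cells, and the scores of the other 7 lists moved by less. None of the markers named here passed an adjusted p of 0.05 in this comparison with edgeR, and the part of these 6 lists in the Grm2 difference was not tested.

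**Figure D4:**
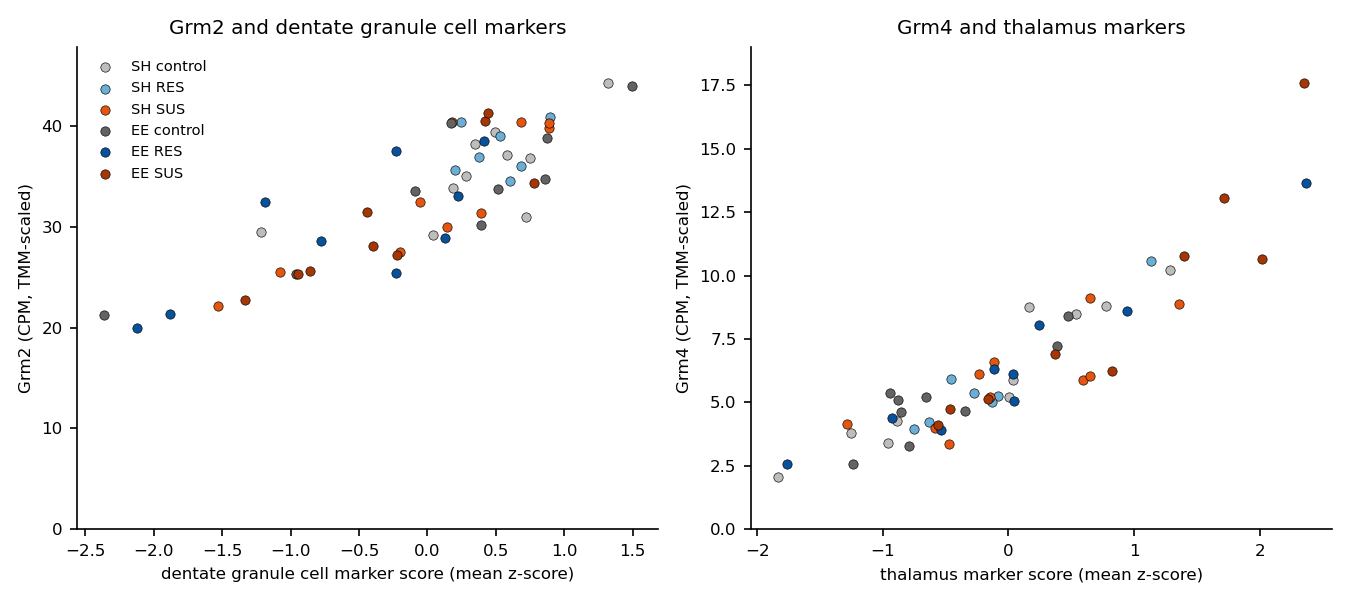
Left, Grm2 in CPM against the dentate granule cell marker score, and right, Grm4 in CPM against the thalamus marker score, 1 point per mouse colored by group (score in mean z units over 54 mice). Mice of all groups fall along a common band in each panel, with r of 0.835 and 0.920 after group means were removed.

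The other receptors varied with other lists. Grm4 varied with thalamic markers (r = 0.920, rho = 0.890, each with an adjusted permutation p of 0.00014 or less), with r between 0.799 and 0.962 in every group, and the score accounted for 84.7% of its variance within groups. Grm3 varied with microglial markers (r = 0.680, rho = 0.750) and with astrocyte markers (r = 0.643, rho = 0.652), positively in all 6 groups for both lists. Grm8 varied with the markers of hilar mossy cells (r = 0.663, rho = 0.584), in 5 of 6 groups positively, and inversely with CA3 markers (r = -0.651, rho = -0.509) and choroid plexus markers (r = -0.528, rho = -0.427). Each of these relations of Grm3, Grm4 and Grm8 had an adjusted permutation p of 0.0105 or less by both measures. Grm5 had its closest relation with oligodendrocyte markers (r = -0.463, rho = -0.427, adjusted permutation p = 0.0039 and 0.0105), and Grm7 with those of GABA interneurons (r = -0.471, rho = -0.440, adjusted permutation p = 0.00465 and 0.0105). Neither is large beside the relation of Grm2 with granule cell or of Grm4 with thalamic markers.

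**Figure D5:**
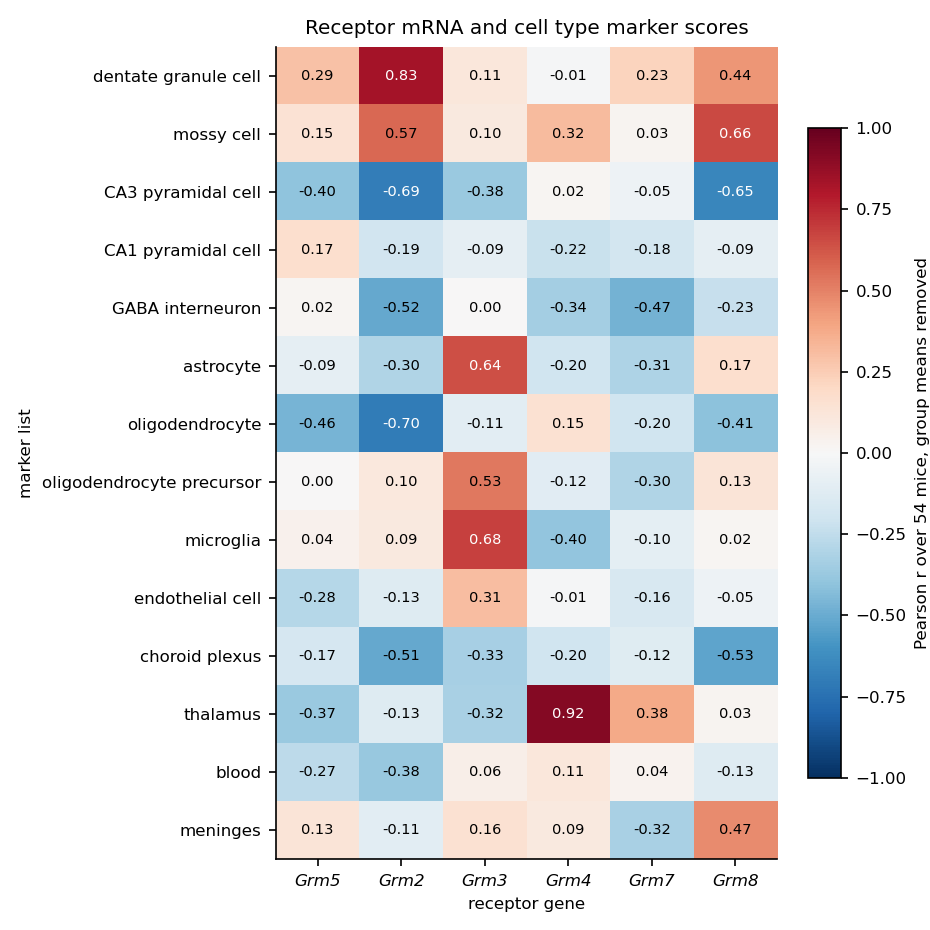
Pearson r between each receptor (columns) and the score of each of 14 marker lists (rows) over 54 mice after group means were removed, with red for positive and blue for negative values. The darkest cells are Grm4 with thalamus (0.920) and Grm2 with dentate granule cell (0.835), while the columns of Grm5 and Grm7 stay pale.

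Among the receptors themselves, 1 of 15 pairs passed adjustment over the pairs. Grm2 and Grm8 had r = 0.430 (permutation p = 0.00282, adjusted p = 0.0423) and r = 0.401 without the 2 farthest mice, but rho = 0.347 did not pass (permutation p = 0.0144, adjusted p = 0.217), and r ran from -0.552 to 0.886 between groups. Grm2 and Grm3, which share group II, had r = 0.074 (permutation p = 0.616, adjusted p = 0.77). Grm7 and Grm8, which share group III, had r = -0.051 (permutation p = 0.741, adjusted p = 0.855).

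The genes most alike to each receptor were taken by r over the same deviations, among all genes tested, and are given as a description without a test. For Grm2 these were Kbtbd11 (r = 0.916), Pitpnm2 (r = 0.907), Tacc1 (r = 0.895), Bcl11b (r = 0.892) and Sec14l1 (r = 0.889), and the most opposite were Scg5 (r = -0.864), Psd3 (r = -0.837) and Zfp367 (r = -0.835). Kbtbd11 and Pitpnm2 kept r at or above 0.772 in every group, whereas Tacc1 fell to -0.169 in 1 group. Grm4 was most like Cit (r = 0.945), Tcf7l2 (r = 0.928), itself a thalamic marker on the list, and Rnf152 (r = 0.927). Grm8 was most like Adcyap1 (r = 0.748), which encodes the neuropeptide PACAP, Cdh13 (r = 0.738) and Ptchd1 (r = 0.723). Grm3 was most like Slc7a2 (r = 0.743), Ptn (r = 0.740) and Lix1 (r = 0.737). For Grm5 the closest were Pgrmc1, Bex1 and Lrrc4c (r = 0.709 to 0.723), and for Grm7 they were Zcchc9-ps, Celf2 and Gm43113 (r = 0.695 to 0.701).

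The signaling partners of these receptors were followed in a list of 48 genes, including G proteins, phospholipases, adenylyl cyclases, Homer scaffolds, GIRK channels and glutamate transporters. None of the 48 passed an adjusted p of 0.05 in any comparison with edgeR. In SUS against RES mice, 2 of 48 had an unadjusted p below 0.05 in SH, Gnai1 and Adcy5, both higher in SUS mice, beside 4.88% of all genes, and 0 of 48 did in EE, where 3.52% of all genes had one. The 2 genes in SH are about as many as that share of all genes would give. For Gnai1, a Gi subunit through which group II and III receptors signal, the log2 fold change was 0.16 (edgeR p = 0.0292, adjusted p = 0.934). In EE against SH RES mice 10 of 48 had an unadjusted p below 0.05, 5 higher and 5 lower, beside 16.0% of all genes. Adcy5, an adenylyl cyclase inhibited by Gi, had the smallest p there (0.18, SE 0.05; edgeR p = 0.00165, adjusted p = 0.0947), and the scaffold Homer3 was at 0.28 (SE 0.11; edgeR p = 0.00989, adjusted p = 0.163). The GIRK channel subunits Kcnj3 (-0.13, edgeR p = 0.00926) and Kcnj9 (-0.17, edgeR p = 0.0399) and the astrocytic glutamate transporter Slc1a3 (-0.16, edgeR p = 0.0054) were on the lower side.

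In EE SUS against EE control mice, 7 of 48 had an unadjusted p below 0.05, 4 higher and 3 lower, beside 7.9% of all genes. Plcb4, a phospholipase C downstream of group I receptors, ran from 24.4 to 44.6 CPM in EE control mice (median 28.6) and from 31.3 to 92.7 CPM in EE SUS mice (median 52.1), a log2 fold change of 0.82 (SE 0.23; edgeR p = 0.000638, adjusted p = 0.22). Slc17a6, the vesicular glutamate transporter VGLUT2, followed at 1.25 (SE 0.38; edgeR p = 0.00173, adjusted p = 0.308). The thalamic markers named above were higher in the same mice, and with thalamus and choroid plexus scores as covariates the difference was 0.01 for Plcb4 (SE 0.08; edgeR p = 0.894) and -0.11 for Slc17a6 (SE 0.16; edgeR p = 0.492). Over all phenotypes, EE against SH gave 12 of 48 at an unadjusted p below 0.05, with Adcy2 (-0.06, SE 0.02; edgeR p = 0.00252, adjusted p = 0.0703) the smallest, beside 17.6% of all genes.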

How the data were processed

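RNA of ventral dentate gyrus punches was sequenced from stranded total RNA libraries of 54 mice. Raw gene counts in read pairs, with no normalization, were deposited in the layout of STAR gene counts, while their methods name featureCounts. Per the labels the build was mm10 (GRCm38), and STAR and Picard are named in the submitters' processing notes without versions. The reverse-strand counts were analyzed, since forward-strand counts of the 6 receptors came to at most 0.353% of their counts over both strands. Rows that name no gene were left out of library sizes. They hold unmapped (median 15.9% of read pairs), multimapping (10.0%), unassigned (23.7%) and ambiguous pairs (0.929%). Of 45318 identifiers, 44671 matched the GENCODE M21 annotation, which gave names and coordinates.

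Both runs of EE control replicate 9 were summed, and their log2 counts correlated at 0.998. TMM normalization, filterByExpr and the quasi-likelihood test of edgeR 4.0.16 (R 4.3.3) were run in 1 fit over the 6 groups, which left 18283 genes, with Benjamini-Hochberg adjustment over all of them and a threshold of 0.05. The study's criterion was applied with limma 3.58.1, and DESeq2 1.42.0 was an alternative. Confidence intervals are at 95%. Log2 CPM used a prior count of 2. Relations across mice and exact permutation tests used SciPy 1.17.1. The model was tested on simulated data. At the median counts, counting error was 9.13% for Grm4, 6.61% for Grm8, 3.72% for Grm2 and 2.37% or less for the others, and it covers sampling of read pairs only. Each library is 1 mouse, and no batch is named in the sources used here. Mice were raised in groups, with more per cage in EE than in SH, and the labels name no cage. The tests of EE against SH therefore treat mice of the same cage as independent.

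The alternatives were other tests, size factors, filters, unstranded counts, the 4 defeated groups alone, the first run of EE control replicate 9 alone, marker scores as covariates, a replicate block and each mouse left out. The named genes are the 6 receptors and Grm6, pathway genes with the smallest p per comparison or an unadjusted p below 0.05, marker genes and the genes most alike to each receptor. The receptors and lists were chosen with earlier results of these data known. Protein sequences were not used here, and 1 gene that the rule names is not reported here.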

Additional observations from a re-analysis of the deposited data

Results flagged for a closer look

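In 36 sets of 6 receptors by 6 groups, 3 single mice lay far from the rest of their group by Dixon's 95% critical value, which chance alone passes in about 5% of groups. Grm3 was 104.6 CPM in EE control replicate 7, the highest of its group. Grm4 was 10.6 CPM in SH RES replicate 4. Grm8 was 14.7 CPM in SH RES replicate 5. Forward-strand reads of Grm8, which the comparisons do not use, averaged 0.0127 CPM in SH RES and 0.00924 CPM in SH SUS mice against 0 in SH control mice, which is 2 read pairs in each of these groups. No difference between housings in the SUS and RES contrast passed the edgeR test for a receptor.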

How the results depend on the processing

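No receptor passed an adjusted p of 0.05 in any of the 14 comparisons under any alternative, including the 54 fits that left out 1 mouse each. The smallest adjusted p was 0.0846, for Grm2 in EE against SH RES mice without EE RES replicate 9. Leaving out 1 mouse moved the SUS minus RES log2 fold change of Grm2 between -0.23 and -0.14 in SH and between -0.0026 and 0.12 in EE, where EE SUS replicate 8 decided the sign, and that of Grm4 in SH between -0.0349 and 0.26. With the granule cell score as covariate, Grm2 was reversed to -0.042 for SUS against RES in EE, 0.0356 for RES against control in EE and 0.0122 for defeated against control mice. With choroid plexus and thalamus scores as covariates, Grm2 was 0.0074 for SUS against RES over both housings, Grm4 was -0.0319 and -0.0429 for SUS against RES in SH and EE, -0.15 for EE SUS against control and -0.0156 for EE against SH in SUS mice, and Grm5 was 0.0030 for SUS against RES in EE. The scores come from the same libraries as the receptor counts. These fits therefore cannot tell a change in cell numbers from a change in RNA per cell, and the cause was not tested. Without group means removed, r of Grm2 and Grm4 was -0.061 in place of 0.013.

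By the study's criterion (limma-voom), 1 receptor, Grm2, was counted in EE against SH RES mice, beside 3.24% of all genes. It was 0 receptors with edgeR or DESeq2, whose fold change stayed under 1.3. Grm4 met the criterion in EE SUS against EE control mice, as 1.94% of all genes did. For EE against SH SUS mice limma-voom counted 0 receptors, beside 1.56% of all genes, and edgeR and DESeq2 each counted 1, which was Grm4. These checks were chosen after seeing the data. The count of all genes called in EE against SH RES mice was 50, and it was 245 with DESeq2, 228 with the replicate block, 152 in the 4 defeated groups alone, 116 with choroid plexus and thalamus covariates, 24 without a filter and 0 with the granule cell covariate. It ran from 0 without SH RES replicate 1 to 292 without EE RES replicate 9. Over all phenotypes it was 442, and 680 with DESeq2, 242 without a filter and 74 with the granule cell covariate, and it ran from 254 without EE RES replicate 8 to 735 without SH SUS replicate 3.

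No pair of groups had every correlation between same-numbered mice above 0.1. The pairs above it ran from 0 of 9 for SH SUS and EE control to 8 of 9 for EE RES and EE SUS. For the latter the mean r was 0.156, against -0.02 for other numbers. This check cannot decide whether mice with the same replicate number share a source of variation. With the replicate number as a block, Grm2 was at -0.22 (edgeR p = 0.0864, adjusted p = 0.866) for SUS against RES in SH and -0.39 (edgeR p = 0.00447, adjusted p = 0.0991) for EE against SH in RES mice, and the block called no receptor. Counts of 48 to 385 per mouse limit precision for Grm4, and its SD within groups limits it further.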
